A study of Homo sapiens with 6 samples.

Results

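The genes described here encode the machinery that shortens, decaps and degrades mRNA. They are 41 named genes, and 40 of them had a probeset annotated to a single gene symbol, out of 18404 genes measured that way. BTG2 was not analysed here. CNOT6L was the only one of the 40 with several probesets, and the one with the higher mean level stands for it. The values come from 6 Affymetrix arrays of HEK293 Flp-In cells, an established human embryonic kidney line with a recombination site for a transgene: 3 of the wild-type parental line and 3 of a line that constitutively expresses FLAG-HA-tagged TRIM71. Both lines grew in DMEM with glutamine and FCS, and hygromycin B was used for the TRIM71 line only, so transgene, drug and any other difference between the lines cannot be told apart. Whether the TRIM71 line is a single clone, or which promoter drives the transgene, is not stated in the sources used. The labels state a triplicate without saying what was repeated, so p-values reflect the spread among these 6 samples, which could be technical.

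Degradation of a typical mRNA begins with loss of its poly(A) tail. PAN2-PAN3 and the CCR4-NOT complex carry out that step, after which DCP2 removes the cap and XRN1 digests the body from the 5′ end, or the exosome digests it from the 3′ end. RNA-binding proteins such as Pumilio, Nanos and the ZFP36 family, and the adaptors of the BTG/TOB family, bring CCR4-NOT to chosen mRNAs. TRIM71, a TRIM-NHL protein, binds and represses mRNAs, and its fly relative Brat is known to act with Pumilio and Nanos. The comparison therefore asks how the mRNAs of the decay machinery itself differ between a line that carries TRIM71 and its parent.

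TRIM71 mRNA stood at 7.23, 7.54 and 7.44 (log2 expression) in the parental arrays and at 10.63, 10.86 and 10.72 in the TRIM71 arrays, a log2 fold change of 3.33 (adjusted p = 6.8e-05). Of 9 markers listed for HEK293, 8 lay above the median level of all probesets, 6.94, and NEFM lay below it. Their summed log2 values were 87.7 to 88.1 in the parental arrays and 86.3 to 87.0 in the TRIM71 arrays, which did not overlap. The neurofilament genes NEFL (−1.45) and INA (−0.62) and the keratin KRT8 (−0.22) fell, and CDH2 (0.42), VIM (0.40) and LHX1 (0.30) rose, and their part in the results was not tested. Markers of leukocytes (0 of 3) and endothelium (0 of 3) were all below that level, and their summed log2 values spanned 14.6 to 14.9 and 14.4 to 14.7 in the parental arrays against 14.5 to 14.8 and 14.4 to 14.7 in the TRIM71 arrays. APOA1 (1 of 2 hepatocyte markers) and COL1A1 (1 of 4 fibroblast markers) lay above it, with neither passing the test between the lines.

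Of the 40 decay factors, 12 rose and 3 fell in the TRIM71 line, and 25 did not pass the test (limma, Benjamini-Hochberg adjusted p under 0.05 over all probesets). That is 30.0% risen and 7.5% fallen, where 10.0% of all genes rose and 12.2% fell. All 40 lay above the median level of all probesets, and among the 11100 genes at or above that level 14.6% rose and 16.6% fell. The median log2 fold change, TRIM71 line over parental line, was 0.10 for the decay factors and −0.01 for all genes, and it was above 0 for 26 of the 40 (65.0%) against 46.1% of all genes. The changes were small. The largest was 1.32-fold, and 0 of the 40 reached 1.5-fold, while 3.97% of all genes were called and changed at least that much. All 3 TRIM71 arrays lay above all 3 parental arrays for 22 of the 40 genes (20.2% of all genes) and below them for 7 (23.4% of all genes).

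**Figure D1:**
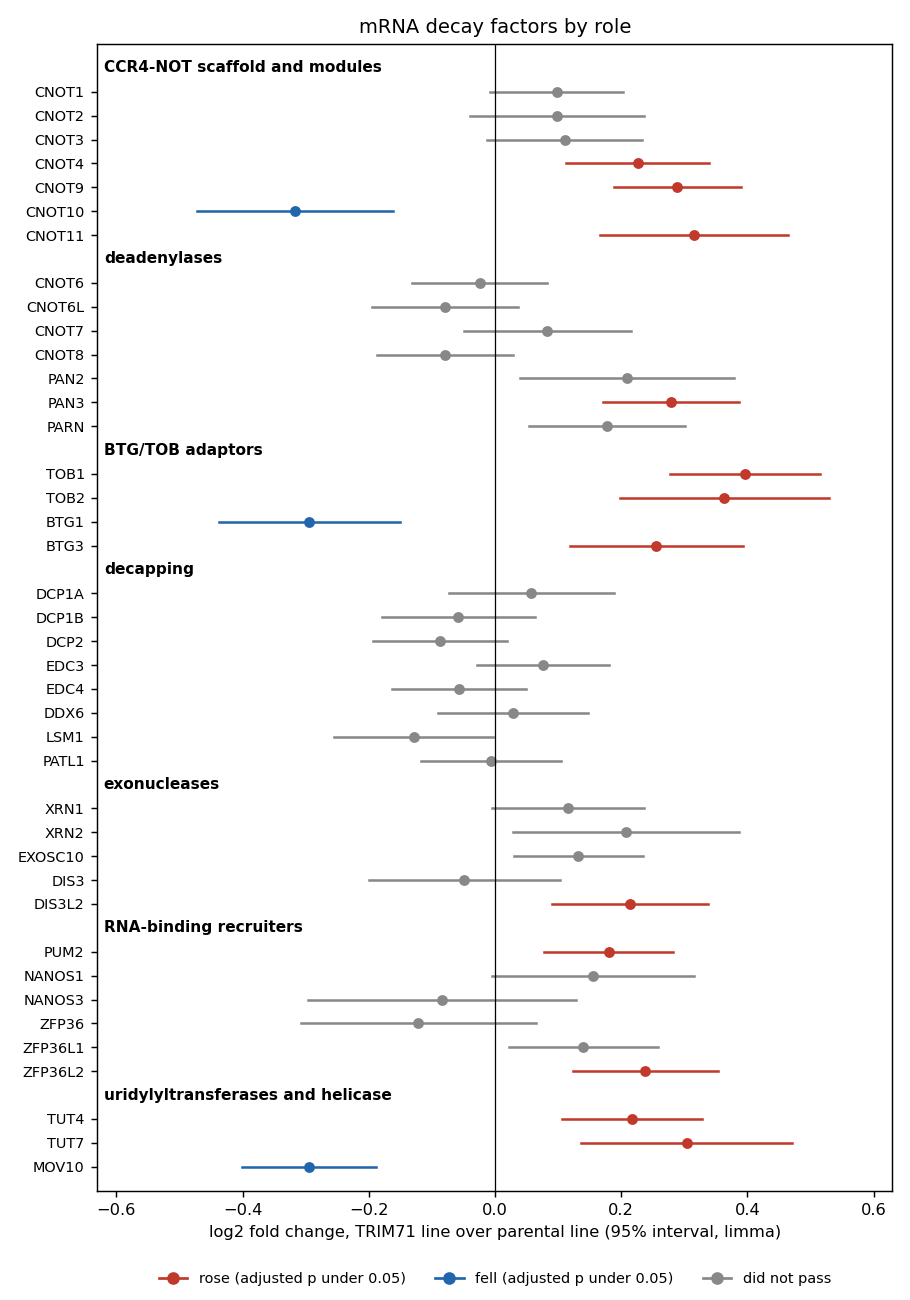
Log2 fold change of each of the 40 decay factors (horizontal axis, TRIM71 line over parental line, 3 arrays each), grouped by role, with 95% intervals from the limma fit; red genes rose, blue genes fell and grey genes did not pass. The 12 risen genes lie between 0.18 and 0.40 and the 3 fallen genes between −0.32 and −0.29, and all 8 decapping genes are grey and lie between −0.13 and 0.08.

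All 4 BTG/TOB family genes measured among the 40 decay factors passed, where 22.2% of all genes passed. BTG4, on a further list described below, did not pass with limma (−0.10, adjusted p = 0.52) and lay below the median level of all probesets. The antiproliferative proteins of this family bind the catalytic subunits CNOT7 and CNOT8 through a shared domain, and TOB proteins also bind the poly(A)-binding protein. TOB1 stood at 10.35, 10.27 and 10.27 in the parental arrays and at 10.70, 10.73 and 10.66 in the TRIM71 arrays. It rose 1.32-fold (log2 fold change 0.40, SE 0.05, adjusted p = 0.0039), and its groups were 0.30 apart at their nearest arrays. Its paralog TOB2 stood at 8.92, 9.07 and 9.13 against 9.35, 9.40 and 9.45 and rose 1.29-fold (0.36, SE 0.07, adjusted p = 0.016). BTG3 rose from 9.53, 9.43 and 9.50 to 9.68, 9.82 and 9.73 (0.26, adjusted p = 0.028). BTG1 went the other way, from 10.49, 10.63 and 10.50 to 10.20, 10.23 and 10.30 (−0.29, adjusted p = 0.020). No array of one line overlapped the other line for any of these 4 called genes, which were picked by the test on the same arrays. Among all genes, 20.2% were without overlap and higher in the TRIM71 arrays, and 23.4% lower. The TOB1 call held with each array left out in turn. The TOB2 call ended without parental replicate 2, TRIM71 replicate 2 or TRIM71 replicate 3 (adjusted p = 0.050 to 0.056), and the BTG1 call without parental replicate 2, TRIM71 replicate 1 or TRIM71 replicate 2 (0.065 to 0.076). The BTG3 call ended without any array but parental replicate 1 (0.052 to 0.10).

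Because 3 of the 4 called BTG/TOB genes rose and 1 fell, their promoters are shown. Each is given as 300 bases around an annotated start, most of them upstream of it, from RefSeq on GRCh38.p14. They read 5′ to 3′ on the gene's strand, which is minus for all 4. Capitals mark matches on either strand to any of 5 motifs. The GC box was searched as GGGCGG and the CCAAT box by the letters of its name. The TATA box was searched as TATAAA. The cyclic AMP response element was searched as TGACGTCA, and the E box was searched as CACGTG. None of the 4 sequences held either of the last 2 motifs, and 0 pairs of matches overlapped. The TOB1 promoter is at chr17:50866305-50866604, TOB2 at chr22:41446752-41447051, BTG3 at chr21:17612852-17613151 and BTG1 at chr12:92145797-92146096.
TOB1: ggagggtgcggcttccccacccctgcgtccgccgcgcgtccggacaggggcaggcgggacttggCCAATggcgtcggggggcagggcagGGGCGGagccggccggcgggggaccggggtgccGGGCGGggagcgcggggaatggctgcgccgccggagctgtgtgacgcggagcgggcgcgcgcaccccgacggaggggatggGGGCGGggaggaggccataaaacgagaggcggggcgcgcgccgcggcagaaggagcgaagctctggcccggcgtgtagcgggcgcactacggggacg
TOB2: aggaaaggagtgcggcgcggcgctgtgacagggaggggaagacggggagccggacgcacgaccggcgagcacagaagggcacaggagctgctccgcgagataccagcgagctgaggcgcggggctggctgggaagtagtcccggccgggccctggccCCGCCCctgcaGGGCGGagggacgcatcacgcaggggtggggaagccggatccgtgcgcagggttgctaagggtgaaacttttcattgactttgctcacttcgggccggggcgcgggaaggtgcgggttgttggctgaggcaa
BTG3: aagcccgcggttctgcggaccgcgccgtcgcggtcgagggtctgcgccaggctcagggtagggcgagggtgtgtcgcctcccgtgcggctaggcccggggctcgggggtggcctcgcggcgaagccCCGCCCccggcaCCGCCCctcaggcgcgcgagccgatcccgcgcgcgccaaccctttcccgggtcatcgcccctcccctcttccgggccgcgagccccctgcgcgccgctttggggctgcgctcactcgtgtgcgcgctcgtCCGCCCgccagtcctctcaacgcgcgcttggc
BTG1: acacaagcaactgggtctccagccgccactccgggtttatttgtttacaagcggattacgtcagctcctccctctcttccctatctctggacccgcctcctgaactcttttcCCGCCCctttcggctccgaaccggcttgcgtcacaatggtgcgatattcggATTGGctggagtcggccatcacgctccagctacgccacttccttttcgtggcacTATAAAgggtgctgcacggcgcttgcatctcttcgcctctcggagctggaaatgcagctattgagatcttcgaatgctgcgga
The TOB1, TOB2 and BTG3 promoters held 3, 2 and 3 GC boxes and no TATA box, and TOB1 also held 1 CCAAT box, with G and C at 78.7%, 68.7% and 77.3% of bases. The BTG1 promoter held 1 GC box, 1 CCAAT box and 1 TATA box, with 56.0% G and C. A second annotated TOB1 start, at chr17:50867929-50868228, held none of these motifs at 41.3% G and C, and the array does not tell the starts apart. Over the 53 promoters listed for 35 of the 40 genes, 73.6% held a GC box, 32.1% a CCAAT box and 1.89% (1 promoter, that of BTG1) a TATA box, and 5.66% held a cyclic AMP response element and 9.43% an E box. Over the 20100 listed promoters of all measured genes the shares were, in the same order, 57.3%, 34.5%, 9.06%, 2.33% and 8.32%. A match is a description of letters in this window and not a shown binding site.

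Of the CCR4-NOT scaffold and modules, CNOT1, CNOT2 and CNOT3 did not pass, while CNOT4, CNOT9 and CNOT11 rose and CNOT10 fell. CNOT1, the scaffold on which the complex is built, differed by 0.10 on the log2 scale (adjusted p = 0.20), and CNOT2 and CNOT3, which form the NOT module at its end, by 0.10 (0.32) and 0.11 (0.21). CNOT1 passed in the limma fits with an intensity trend (adjusted p = 0.045, and 0.049 with robust estimation). CNOT3 passed with chromosome centring (0.044), and CNOT2 in no alternative. CNOT9, the subunit that docks silencing proteins, stood at 10.81, 10.79 and 10.79 in the parental arrays and at 11.09, 11.09 and 11.07 in the TRIM71 arrays. These arrays lay within 0.02 of each other inside each line, and CNOT9 rose 1.22-fold (0.29, SE 0.04, adjusted p = 0.0065). CNOT4, a ubiquitin ligase loosely attached to the complex, went from 9.32, 9.31 and 9.35 to 9.57, 9.59 and 9.50 (0.23, adjusted p = 0.023).

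CNOT10 and CNOT11 sit together at the other end of CNOT1, and their mRNAs moved apart. CNOT11 stood at 10.38, 10.20 and 10.36 in the parental line and at 10.63, 10.66 and 10.60 in the TRIM71 line, a rise of 0.32 (adjusted p = 0.018). CNOT10 stood at 9.60, 9.48 and 9.39 against 9.18, 9.15 and 9.19, a fall of 1.25-fold (−0.32, adjusted p = 0.021). Both genes were more spread in the parental arrays (SD 0.10 and 0.11) than in the TRIM71 arrays (0.03 and 0.02). The CNOT9 call held with each array left out in turn. The CNOT11 call ended without TRIM71 replicate 1 or 2 (adjusted p = 0.064 and 0.066), the CNOT10 call without any array but parental replicate 1 or 3 (0.052 to 0.072), and the CNOT4 call without any array but TRIM71 replicate 3 (0.057 to 0.085).

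None of the 4 catalytic CCR4-NOT subunits passed, where 22.2% of all genes passed. The nuclease CNOT7 differed by 0.08 (adjusted p = 0.39) and its paralog CNOT8 by −0.08 (0.31), the nuclease CNOT6 by −0.02 (0.79) and its paralog CNOT6L by −0.08 (0.34). The 2 CNOT6L probesets had opposite signs, −0.08 at the brighter and 0.04 at the dimmer (adjusted p = 0.67), and neither passed. The limma intervals of these 4 genes lay between −0.19 and 0.22. PAN3, which holds the PAN2 nuclease and binds the poly(A)-binding protein, rose from 10.04, 10.09 and 10.08 to 10.33, 10.37 and 10.34 (log2 fold change 0.28, SE 0.04, adjusted p = 0.0092), with its call held under each array left out. PAN2 itself stood at 9.82, 9.93 and 9.69 against 9.98, 10.03 and 10.06. That difference of 0.21 did not pass (adjusted p = 0.10), and neither did that of PARN, a deadenylase known from RNA maturation (0.18, adjusted p = 0.066). For both genes the TRIM71 arrays lay wholly above the parental arrays, as for 20.2% of all genes. PAN2 passed in 6 and PARN in 8 of 19 alternatives, among them both fits with an intensity trend and the filter at the median level, with adjusted p down to 0.035 and 0.018.

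Decapping was the group with no call. Of its 8 genes, 0 passed with limma, where 22.2% of all genes passed. LSM1 alone had an unadjusted p under 0.05, as 36.4% of all genes did. The further list described below was not counted in this group. On that list PNRC1, EIF4ENIF1 and LSM14B rose, and DCPS did not pass with limma (−0.28, adjusted p = 0.051). DCP2, the enzyme that removes the cap, stood at 9.92, 9.86 and 9.89 in the parental arrays and at 9.79, 9.81 and 9.81 in the TRIM71 arrays, a difference of −0.09 (adjusted p = 0.26). Its coactivators DCP1A and DCP1B differed by 0.06 (0.56) and −0.06 (0.52), and the enhancers EDC3 and EDC4 by 0.08 (0.31) and −0.06 (0.46). DDX6, the helicase that links CCR4-NOT to decapping, differed by 0.03 (0.77) and PATL1, a bridge between deadenylated mRNA and the decapping enzyme, by −0.01 (0.95). LSM1, the subunit that sets the cytoplasmic LSM ring apart, differed most, at −0.13 (0.16). The 95% intervals of the 8 genes all lay between −0.25 and 0.19 on the log2 scale.

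Of the 5 exonucleases, 1 rose, where 10.0% of all genes rose. DIS3L2, which degrades uridylated RNA, went from 8.21, 8.15 and 8.21 to 8.42, 8.34 and 8.45 (log2 fold change 0.21, adjusted p = 0.036), a call that ended with any 1 array left out (adjusted p = 0.054 to 0.122). XRN1, the cytoplasmic exonuclease that follows decapping, stood at 10.13, 10.14 and 10.04 against 10.20, 10.25 and 10.21. Its difference of 0.12 did not pass (adjusted p = 0.18). The nuclear enzyme XRN2 differed by 0.21 (0.12) and passed only when parental replicate 1 was left out (0.28, adjusted p = 0.045). The exosome nucleases EXOSC10 and DIS3 differed by 0.13 (0.087) and −0.05 (0.68), and EXOSC10 passed in 5 of 19 alternatives (adjusted p down to 0.011).

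Among the RNA-binding proteins that recruit deadenylases, 2 of 6 rose. Of all genes 10.0% rose, and 14.6% of those at or above the median level of all probesets. PUM2, a Pumilio protein that binds short elements in its target mRNAs, stood at 10.76, 10.77 and 10.75 in the parental line and at 10.94, 10.96 and 10.92 in the TRIM71 line. The difference of 0.18 was the smallest of the 15 called, with an SD of at most 0.02 in either line (adjusted p = 0.034). ZFP36L2, a zinc finger protein that binds AU-rich elements, rose from 9.62, 9.65 and 9.65 to 9.82, 9.92 and 9.90 (0.24, adjusted p = 0.020). Its relatives ZFP36L1 (0.14, adjusted p = 0.11) and ZFP36 (−0.12, 0.37) did not pass, nor did the Nanos proteins NANOS1 (0.16, 0.18) and NANOS3 (−0.08, 0.60), known from germ cells. The PUM2 call ended with any 1 array left out (adjusted p = 0.073 to 0.106), and the ZFP36L2 call without any array but TRIM71 replicate 1 (0.056 to 0.071).

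The terminal uridylyltransferases TUT4 and TUT7 rose and the helicase MOV10 fell. TUT1, on the further list described below, did not pass with limma (−0.07, adjusted p = 0.38). TUT4 and TUT7 add uridines to short poly(A) tails and to let-7 precursors. TUT4 stood at 10.39, 10.32 and 10.35 in the parental arrays and at 10.59, 10.58 and 10.54 in the TRIM71 arrays (log2 fold change 0.22, adjusted p = 0.024), and TUT7 at 8.69, 8.57 and 8.70 against 8.93, 9.07 and 8.87 (0.30, adjusted p = 0.031). MOV10, which associates with Argonaute complexes, stood at 9.94, 10.01 and 9.97 against 9.68, 9.68 and 9.67. It fell 1.23-fold (−0.29, SE 0.04, adjusted p = 0.0072), its TRIM71 arrays lay within 0.01 of each other, and its call held with each array left out. The TUT4 call ended without any array but parental replicate 1 (adjusted p = 0.051 to 0.090) and the TUT7 call without any array but TRIM71 replicate 3 (0.064 to 0.102).

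**Figure D2:**
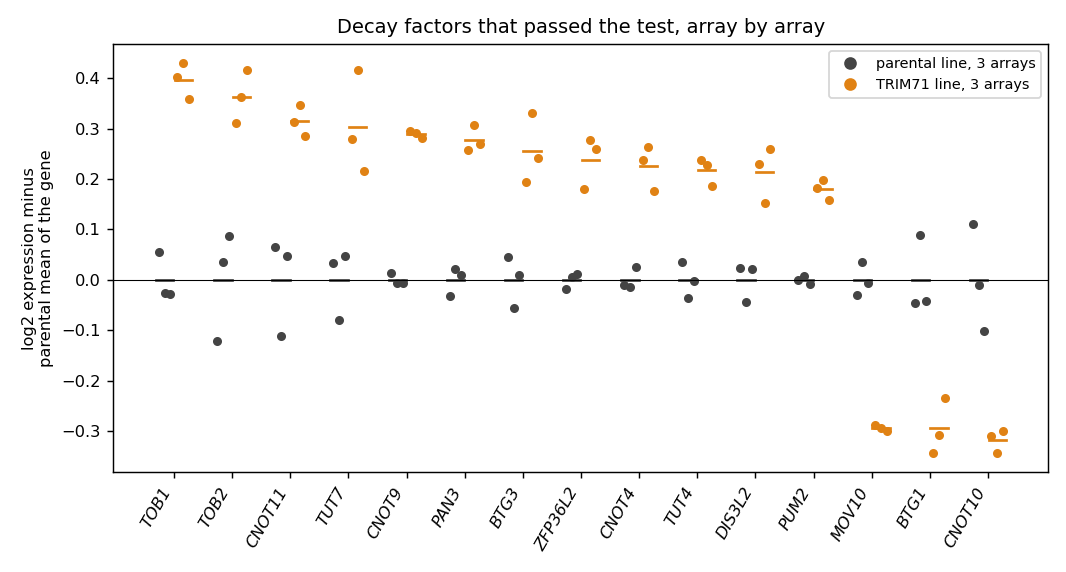
Log2 expression of the 15 decay factors that passed the test, in each of 3 parental (dark) and 3 TRIM71 (orange) arrays, after subtraction of the gene's parental mean; short lines are group means. The lines do not overlap for any of the 15 genes, which were picked by the test on these same arrays. Of all genes, the TRIM71 arrays lay wholly above for 20.2% and wholly below for 23.4%. The arrays lie closest together for CNOT9, PUM2 and MOV10.

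Over the whole set, leaving out 1 array lowered the number of risen genes from 12 to 8 without parental replicate 1, 4 without parental replicate 2, 5 without parental replicate 3, 5 without TRIM71 replicate 1, 3 without TRIM71 replicate 2 and 6 without TRIM71 replicate 3. The number of fallen genes went from 3 to 1 without parental replicate 2, TRIM71 replicate 1 or TRIM71 replicate 2. The counts over all 18404 genes dropped too, from 1848 risen to between 979 and 1485, and from 2244 fallen to between 1336 and 1709. The 4 genes whose calls held with every array left out were TOB1, CNOT9, PAN3 and MOV10, and no called gene changed direction in the alternatives run. With each array centred on its median, 6 decay factors rose and 3 fell, while 1431 of all genes rose and 1941 fell. The calls of CNOT4, BTG3, DIS3L2, PUM2, TUT4 and TUT7 ended there (adjusted p = 0.051 to 0.092).

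Paralogs were compared within each array, as the difference of their log2 values, in the 8 of 10 listed pairs that had both genes measured. TOB1 minus TOB2 differed between the lines by 0.03 (two-sided exact permutation p = 0.8, 0.8 adjusted over the 8 pairs), with SDs of 0.16 and 0.08 over the parental and TRIM71 arrays. TUT4 minus TUT7 differed by −0.09 (exact p = 0.3, adjusted 0.34). The largest difference was for NANOS1 minus NANOS3, from 0.38, 0.34 and 0.55 in the parental arrays to 0.61, 0.76 and 0.62 in the TRIM71 arrays (0.24, exact p = 0.1, adjusted 0.2). CNOT7 minus CNOT8 differed by 0.16, DCP1A minus DCP1B by 0.12 and ZFP36L1 minus ZFP36L2 by −0.10, each with the same p values. CNOT6 minus CNOT6L (0.06) and XRN1 minus XRN2 (−0.09) had an exact p of 0.2 (adjusted 0.27). With 3 arrays a group the smallest exact p is 0.1, so no pair could pass.

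**Figure D3:**
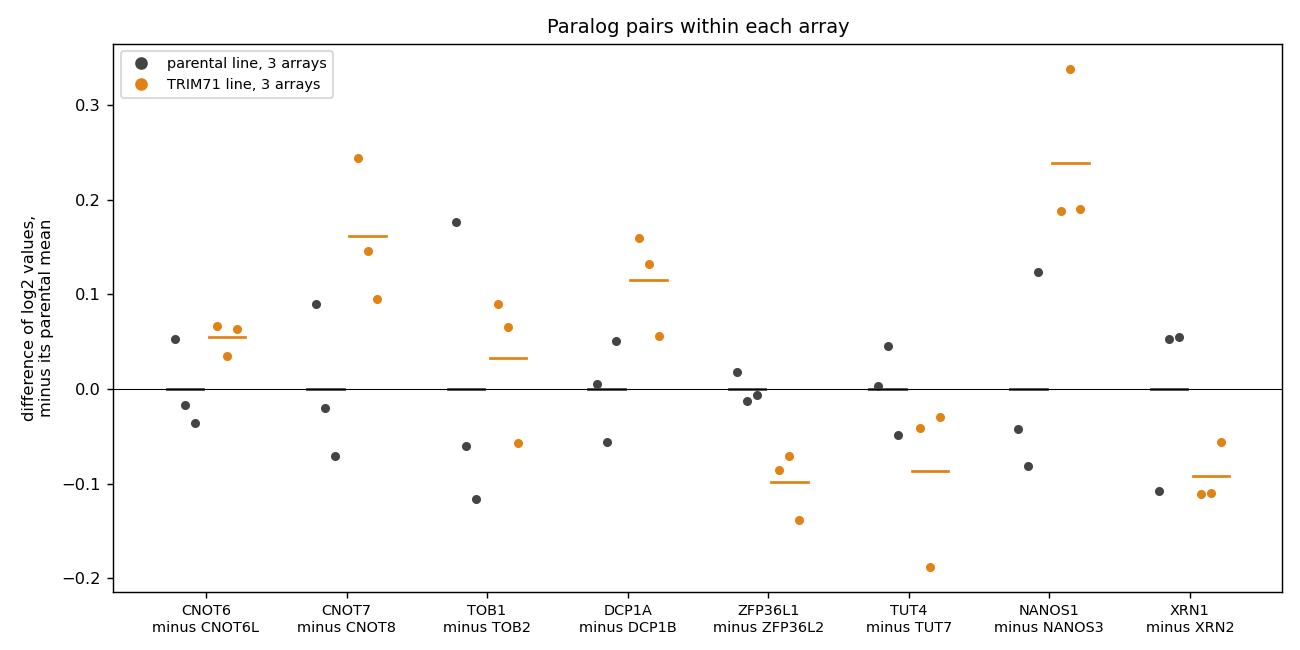
Difference of the log2 values of 8 paralog pairs within each array, minus the mean of that difference over the parental arrays; points are single arrays of the parental (dark) and TRIM71 (orange) lines and short lines are group means. TOB1 minus TOB2 overlaps between the lines, and NANOS1 minus NANOS3 shows the largest shift, 0.24.

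A further list of 66 decay genes, among them exosome subunits, the LSM ring, nuclear exosome cofactors and other RNA-binding regulators, had 62 measured. Of these, 8 rose (12.9%), 2 fell (3.23%) and 52 did not pass, with a median log2 fold change of 0.02. Of all genes 10.0% rose and 12.2% fell. At or above the median level of all probesets, where 58 of the 62 lay, 14.6% of genes rose and 16.6% fell. The share that rose was thus near these shares and the share that fell was below them, a difference that was not tested. The cytoplasmic polyadenylation element-binding proteins, which control tail length, held the largest change in each direction. CPEB1 rose from 7.22 ± 0.13 to 7.91 ± 0.09 (SD, n = 3; 0.69, adjusted p = 0.0035), and CPEB4 fell from 8.39 ± 0.02 to 7.83 ± 0.04 (−0.56, adjusted p = 9.4e-04). CPEB3 rose by 0.23 (adjusted p = 0.034), and CPEB2 did not pass (−0.01, 0.89). LSM14B, a P-body protein, rose by 0.43 (0.0038), as did a second of its 3 probesets (0.72), while the third and dimmest did not pass (0.14, 0.50). PNRC1 rose by 0.36 (0.010), while PNRC2 did not pass (0.15, 0.073). SAMD4B, a Smaug protein that recruits CCR4-NOT, rose by 0.28 (0.0070) and ELAVL1, which stabilises AU-rich mRNAs, by 0.26 (0.012). RC3H1 (Roquin), which recruits CCR4-NOT to stem-loops, rose by 0.26 (0.0105). EIF4ENIF1, which carries the cap-binding protein eIF4E into P-bodies, rose by 0.29 (0.020). ANGEL1, a CCR4-related protein, fell (−0.20, 0.033). None of the 9 measured core exosome subunits passed with limma, nor did the 7 other LSM ring subunits (LSM2 to LSM8), with log2 fold changes between −0.14 and 0.26. At an unadjusted p under 0.05, 0 of these 9 and 2 of these 7 were counted, against 36.4% of all genes.

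All 5 decay factors on chromosome 2 rose: CNOT9, CNOT11, DIS3L2, PUM2 and ZFP36L2. Of all 1154 genes measured on that chromosome, 28.0% rose and 6.41% fell, with a median log2 fold change of 0.08, the highest of the 23 chromosomes compared. Outside chromosome 2, 8.84% of 17250 genes rose and 12.6% fell. There 7 of 35 decay factors rose (20%) and 3 fell (8.57%), with a median of 0.08 against −0.02 for all genes. With each array's chromosome median subtracted, an alternative chosen after the data were seen, CNOT9 (0.19, adjusted p = 0.016) and CNOT11 (0.21, 0.035) still passed, and ZFP36L2 (0.14, 0.064), DIS3L2 (0.11, 0.15) and PUM2 (0.08, 0.25) did not. That setting called 14 decay factors risen, 9 of them shared with the 12 above. The other 5 were CNOT3, PAN2, PARN, NANOS1 and ZFP36L1.

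**Figure D4:**
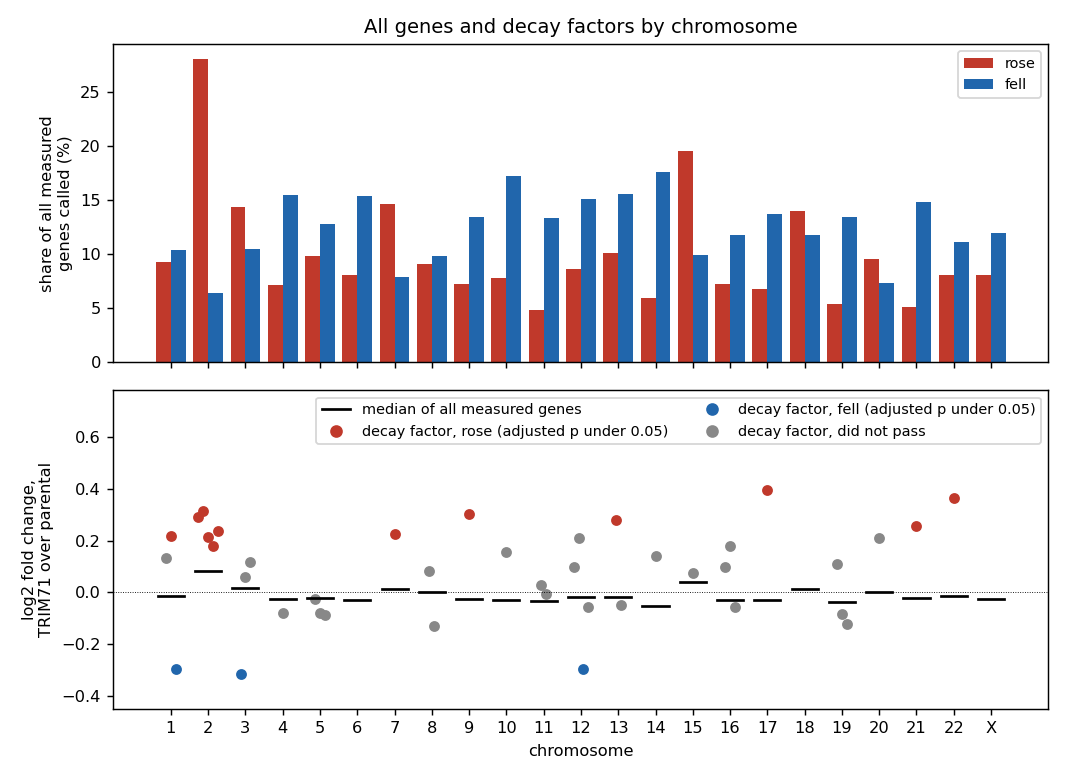
Top, share of all measured genes on each chromosome that rose (red) or fell (blue) in the TRIM71 line, in percent. Bottom, log2 fold change of each of the 40 decay factors (points, coloured by call) and the median of all measured genes (black lines) by chromosome; the 5 decay factors on chromosome 2 are all red, above a chromosome median of 0.08, where 28.0% of genes rose.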

How the data were processed

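RNA was measured on 6 arrays, 3 per line, grouped by sample title. The deposited values were log2 expression, produced by the authors with RMA and affy according to the submitters' processing notes; version, annotation and genome build: not given in the sources used here. RMA gives all arrays a common intensity distribution, so a change in total mRNA per cell cannot be seen. Array medians lay between 6.90 and 6.97, and the number of arrays limits the precision.

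A linear model with the line as its term was fitted to all 32321 probesets using R 4.3.3 and its package limma 3.58.1 (lmFit, then eBayes, without trend or filter). Benjamini-Hochberg adjustment was made over all probesets in this fit. The procedure was tested on simulated data with changes of 1.5-fold or more, a size that none of the decay factors reached. A gene with several probesets was read at the one with the highest mean level. Adjusted p values of genes, and 95% intervals, come from this fit. The annotation table given for the array named 19158 probesets with 1 symbol, and 18376 of the 18404 genes matched the RefSeq table of GRCh38.p14 by gene ID, used for chromosomes and gene order. Paralog pairs were tested with scipy 1.17.1. Genes that passed are named with every array, all others by their log2 fold change, and the arrays of PAN2, DCP2 and XRN1 were added after their values were seen. Of the further list of 66 genes, up to 6 passing genes per direction with the smallest adjusted p were to be named. EIF4ENIF1, CPEB3, CPEB2, BTG4, TUT1, PNRC2, DCPS and the exosome and LSM subunits were added after their values were seen. The decay factors and lists were chosen with earlier results of these data known. Alternatives covered the variance prior, normalization, filters on dim probesets, probeset choice, array weights, blocking on replicate number, testing against 1.2-fold, a stricter threshold of 0.01 and each array left out; 2 on chromosomes were added after the data were seen. Protein sequences were not used here.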

Additional observations from a re-analysis of the deposited data

How the results depend on the processing

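TRIM71 kept its direction and its call in the alternatives run, between 3.25 and 3.40 with 1 array left out. With 1 array left out, 3 to 8 decay factors rose and 1 to 3 fell, 5 to 8 of the further list rose and 1 to 2 fell, and 979 to 1485 of all genes rose and 1336 to 1709 fell. Deviations from the line means correlated at 0.07, −0.19 and 0.11 between same-numbered arrays, and at −0.28 to 0.24 between differently numbered ones. With 3 arrays a line, these values cannot show whether replicate numbers pair the arrays. With the replicate block, 4 decay factors rose (CNOT9, PAN3, TOB1, TOB2) and 1 fell (MOV10). In that fit 4 genes of the further list rose and 1 fell, and 1019 and 1371 of all genes. At an adjusted p under 0.01, 3 decay factors rose and 1 fell, 3 and 1 of the further list, and 792 and 1106 of all genes. Against a fold of 1.2 with limma's treat, 0 decay factors rose and 0 fell (1, TOB1, at an unadjusted p under 0.05), 1 and 1 of the further list, and 232 and 471 of all genes. Median centring left 6 risen decay factors and 1 fallen gene of the further list, with 1431 risen and 1941 fallen of all genes. Other settings raised the number of risen decay factors from 12, with 3 fallen in each. It was 16 with an intensity trend (with or without robust estimation) or a filter at the median, and 15 with 1 probeset per gene or the mean of probesets. It was 14 with chromosome centring and 13 with array weights or a filter at the 20th percentile. Risen genes among all genes also went up from 1848, to 2334 with an intensity trend, 2310 with robust estimation and 2380 of 11100 with the filter at the median. They numbered 2493 with 1 probeset per gene, 2495 with the mean of probesets and 2509 of 18352 with chromosome centring. With array weights there were 2061, and with the filter at the 20th percentile 2099 of 16299. Of the 25 genes that did not pass, 17 passed in no alternative. The further list had 14 risen and 5 fallen with an intensity trend or a filter at the median, and 13 and 5 with robust estimation added. It had 5 fallen with 1 probeset per gene or the mean of probesets, and 4 with quantile normalization or a filter at the 20th percentile. Without chromosome 2, 7 of 35 decay factors and 1525 of all 17250 genes rose. In genes that never passed, the sign turned for PATL1 (−0.01) without parental replicate 1, parental replicate 3 or TRIM71 replicate 1 (−0.027 to 0.0096 over the arrays left out) and with chromosome centring (0.038), and for DIS3 (−0.05) without parental replicate 1 (−0.077 to 0.0020). A stricter threshold lowers a count by construction, and the cause of the other moves was not tested.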

Other observations

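The decay factors as a set stood lower in each parental array than in each TRIM71 array. The mean deviation of the 40 genes from their own means over the 6 arrays was −0.03, −0.05 and −0.05 in parental replicates 1 to 3 and 0.03, 0.05 and 0.04 in TRIM71 replicates 1 to 3. Of the 40 genes, 18, 12 and 11 lay above their own mean in the parental arrays, and 25, 30 and 26 in the TRIM71 arrays. The same mean over all genes was −0.003, 0.017 and 0.022 in the parental arrays and −0.029, −0.014 and 0.006 in the TRIM71 arrays. It overlapped between the lines and leaned the other way.

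The genomic neighbours of the decay factors were set beside them, as the 10 nearest measured genes on each side. Around PUM2, 8 of 20 neighbours rose and 1 fell, with a median log2 fold change of 0.13. Around CNOT9, CNOT11 and ZFP36L2, 6 of 20 rose in each case and 1, 3 and 0 fell, with medians of 0.04, 0.01 and 0.06. Around DIS3L2 2 of 20 rose and 1 fell, with a median of 0.01. These 5 genes lie on chromosome 2, where 28.0% of all genes rose and 6.41% fell. Over all chromosomes 10.0% rose and 12.2% fell. TOB1 rose where its neighbours had a median of −0.01 (2 risen, 4 fallen), and PAN3 where theirs was at 0.00 (1 risen, 2 fallen). BTG1 fell in a stretch where 4 of 20 neighbours rose and 1 fell (median 0.09), and BTG3 rose where 1 rose and 4 fell (median −0.07). ZFP36L1, which did not pass, lay among 20 neighbours of which 0 rose and 7 fell (median −0.19).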
